A study of Mus musculus with 12 samples.

Results

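Sequences of piRNA length that carry neither of the usual piRNA base marks were followed through periodate oxidation in mouse testis RNA. They were taken from the deposited piRNA table as the sequences of 26 to 32 nt whose base 1 is not T and whose base 10 is not A, counted from the 5' end. The table is written in DNA letters, so T stands for U. There were 122947 such sequences among 1018402 in the table, or 12.1%, and they are called the class below. A mean of at least 5 RPM (reads scaled to a common library size) over the libraries was reached by 786 of them, and these are the ones described one by one.

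Total RNA came from the testes of C57BL/6 males that were 4 months old, and its small RNA of 17 to 40 nt was sequenced. Libraries were made after and before oxidation with sodium periodate (NaIO4) from 10, 50 and 100 ng of RNA. Each of the 6 groups had 2 technical replicates, which made 12 libraries. The groups were 10, 50 and 100 ng after oxidation, and 10, 50 and 100 ng before it. Every library was made by the method the labels call 10ng-seq and carried a spike-in in proportion to its input. The labels give no transgene or treatment of the mice and do not say how many mice the RNA came from. Since replicates were technical, a p-value here speaks of libraries of one kind of RNA and of no difference between animals.

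PIWI proteins of germ cells bind piRNAs, which silence transposons and, in the adult testis, are made in large numbers from long single-stranded precursors. The cut that makes a primary piRNA leaves U at its 5' end in most cases, and the piRNA made from the opposite strand by PIWI slicing then tends to have A at base 10. The 3' end is trimmed and receives a 2'-O-methyl group from the methyltransferase HENMT1. Periodate destroys an RNA end with free 2' and 3' hydroxyls and leaves a 2'-O-methylated end ready for adapter ligation. The class set apart here shows neither base preference.

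The sequences on which the results turn are shown here as in the deposited table. Base 1 and base 10, the bases that the choice of the class used, are in capitals. The first set is the 5' family with the most reads, in which sequences share their first 20 bases and differ in length, so that the place of the 3' end can be read off:
actcga-26: ActcgagacTgtgtagaaccttcata
actcga-28: ActcgagacTgtgtagaaccttcatagg
actcga-30: ActcgagacTgtgtagaaccttcataggct
actcga-31: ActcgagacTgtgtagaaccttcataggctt

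The second set is a 5' family whose members part after the base that ends the first line, some going on with c and some with a:
gatatt-29: GatattttcTccactgaaactgaaagaac
gatatt-30c: GatattttcTccactgaaactgaaagaacc
gatatt-32c: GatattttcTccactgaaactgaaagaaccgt
gatatt-30a: GatattttcTccactgaaactgaaagaaca
gatatt-31a: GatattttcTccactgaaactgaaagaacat

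The third set holds single sequences with a large fall or rise after oxidation, among them a pair that differs by 1 base at the 3' end. It also holds actagt-31, which was chosen for its difference between 10 and 100 ng before oxidation. Of the set, caggca-29, atccat-30 and actagt-31 have a place in an annotated transcript:
cacagg-32: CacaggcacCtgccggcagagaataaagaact
caggca-29: CaggcagaaTgaggaagatatatagatga
ctcttt-30: CtcttttccTtacgtagaatctgcacaaga
atccat-30: AtccatgtaTgcaaatgtgactctctgagg
ctgaac-31: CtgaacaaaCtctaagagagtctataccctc
ctgaac-32: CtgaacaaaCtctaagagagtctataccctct
actagt-31: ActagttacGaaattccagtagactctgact

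On GRCm38, atccat-30 matched chromosome 2, 127699733 to 127699762, plus strand, in exon 5 of the antisense RNA gene Gm14244. The match of caggca-29 was chromosome 7, 125333071 to 125333099, minus strand, in an exon of the lincRNA gene 4933440M02Rik. That of actagt-31 was chromosome 15, 83355244 to 83355274, minus strand, in exon 3 of the lincRNA gene 1700001L05Rik. All of these exons are non-coding, and the sequences have the strand of the transcript. The other sequences shown matched no annotated transcript and have no position here.

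RPM denominators were 1924201 to 3347735 reads per library, and reads of the class were 79819 to 149337. A count of 3 reads, used as the floor of a single library, was worth 0.896 to 1.56 RPM and covers counting error only. Testis was checked by its miRNAs before oxidation. The sum of 8 germ cell miRNAs was 40656 to 48983 RPM, and every one of them was detected. The liver miRNA miR-122-5p was at 0.305 to 6.07 RPM and the sum of the blood cell miRNAs miR-451a and miR-144-3p at 0 to 2.70 RPM. Total miRNA was as low as 218 RPM after oxidation and as high as 138463 RPM before it. RPM is a share of all reads counted, so the RPM of other sequences after oxidation is not on the same base.

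The class held a smaller share of piRNA-length reads after oxidation than before it. The shares of 26 to 32 nt RPM after oxidation were 5.10% and 5.46% (10 ng), 5.39% and 5.24% (50 ng) and 5.42% and 5.44% (100 ng). Before oxidation they were 5.85% and 5.94% (10 ng), 5.86% and 5.83% (50 ng) and 5.88% and 5.89% (100 ng). Every library after oxidation was below every library before it. The mean was 5.34% ± 0.143 after and 5.87% ± 0.0394 before (SD, n = 6 each), a difference of -0.53 percentage points. A 2-sided exact permutation test of the oxidation labels within inputs gave p = 0.00926, the smallest it can give, and 0.0123 after Benjamini-Hochberg adjustment over the 4 classes of 26 to 32 nt. By input the difference was -0.62 (10 ng), -0.53 (50 ng) and -0.46 points (100 ng). Without the 10 ng libraries the groups still did not overlap, and the exact permutation test then cannot go below 0.0556.

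Sequences with A10 but no T1, which are the closest in base marks, lost a larger part of their share. They held 4.02% ± 0.331 after and 4.77% ± 0.0575 before oxidation (SD, n = 6 each, exact permutation p = 0.00926, adjusted 0.0123). Sequences with T1 but no A10 held 61.6% ± 1.11 after and 59.7% ± 0.194 before (same p values). Those with both marks held 29.05% ± 0.742 after and 29.6% ± 0.149 before (p = 0.0185 in the exact permutation test, adjusted 0.0185), and their groups overlapped. That difference did not pass over 29 to 32 nt (-0.25 points, exact permutation p = 0.269), over sequences of at least 5 RPM (-0.24 points, p = 0.185), or without either library of 50 ng before oxidation (p = 0.0556 and 0.0648). Taken as log2 ratios, the class changed by 0.11 against A10 without T1, by -0.11 against T1 with A10 and by -0.18 against T1 without A10, each with an exact permutation p of 0.00926 before and after adjustment over the 3 ratios. The ratio to A10 without T1 changed by 0.22 (10 ng), 0.0983 (50 ng) and 0.0177 (100 ng). Over sequences of at least 5 RPM it had the other sign, at -0.0381.

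**Figure D1:**
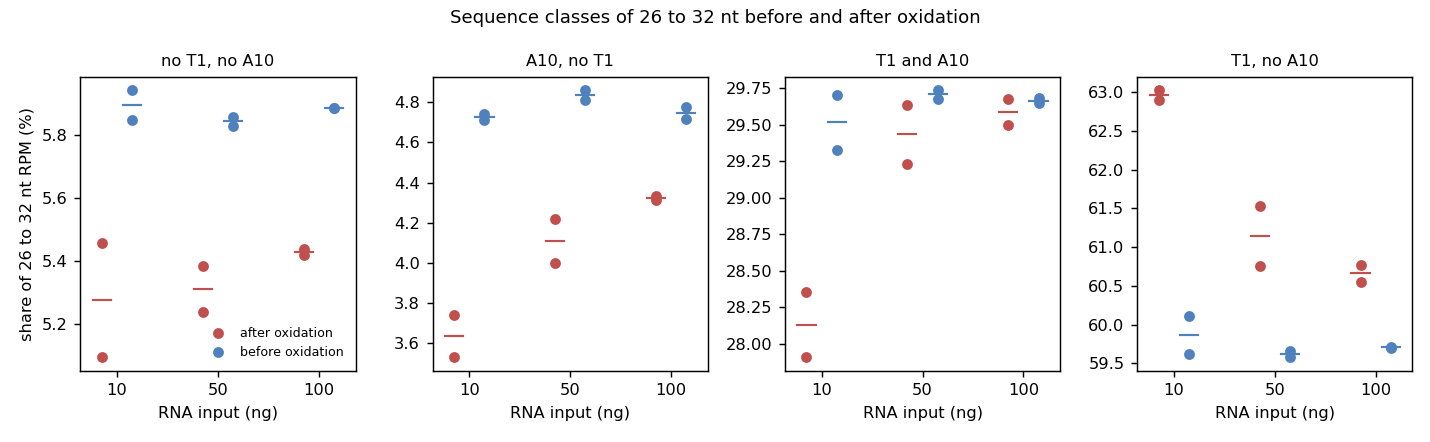
Share of the summed RPM of all 26 to 32 nt sequences (y axis, %, not starting at 0 and scaled by panel) held by each class, against RNA input in ng, with a point per library and a line at the mean of 2 libraries, after oxidation left of before oxidation. In the panel of sequences with neither T1 nor A10, the 6 libraries after oxidation lie between 5.10% and 5.46% and the 6 before it between 5.83% and 5.94%.

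In total RPM the class was nearly level. It summed to 43093 ± 1593 RPM after and 41570 ± 405 RPM before oxidation (SD, n = 6 each), a log2 change of 0.0512 with an exact permutation p of 0.0741. The groups overlapped. By input the log2 change was -0.0294 (10 ng), 0.0779 (50 ng) and 0.105 (100 ng). Set against the methylated spike-in reads of the same library it was -2.94, and as a share of all RPM in the piRNA table it was -0.12, so the direction of the total depends on what it is divided by. The input had no detectable effect on the share of the class among 26 to 32 nt reads (exact permutation of input labels within each oxidation state, p = 0.689). Over the sequences of at least 5 RPM that p was 0.00444.

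Far fewer distinct sequences of the class were seen after oxidation, above all at the lowest input. The numbers detected after oxidation were 3378 and 2411 (10 ng), 15016 and 13421 (50 ng) and 19285 and 16923 (100 ng). Before oxidation they were 20541 and 19397 (10 ng), 26882 and 31329 (50 ng) and 30885 and 31046 (100 ng). Each detected sequence accordingly held more reads after oxidation, with 26.2 and 33.1 reads at 10 ng against 5.69 and 6.01 before it. At 100 ng it was 7.74 and 8.27 reads after against 3.97 and 4.35 before. T1 sequences of 26 to 32 nt had 35.6 and 42.0 reads each after oxidation at 10 ng, against 13.1 and 13.5 before it. The class made up 6.79% and 6.82% of distinct 26 to 32 nt sequences after oxidation at 10 ng, and 12.1% and 12.04% before it. At 100 ng these values were 11.1% and 10.8% after, against 12.7% and 12.7% before.

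Most members of the class were rare. Of the 122947, 83647 (68.0%) were found in a single library and 255 in all 12. Another count is that 24965 (20.3%) were found only after oxidation and 73866 (60.1%) only before it. The 786 sequences of at least 5 RPM held 35.3% to 47.3% of the class RPM in the libraries after oxidation and 38.8% to 45.6% before it. Just above the 5 RPM limit lay a pair of 32-nt sequences at 4.73 RPM after and 5.30 RPM before oxidation and at 3.21 RPM after and 6.85 RPM before. Just below it lay a 30-nt sequence at 2.43 RPM after and 7.52 RPM before and a 26-nt sequence at 6.97 RPM after and 2.98 RPM before.

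**Figure D2:**
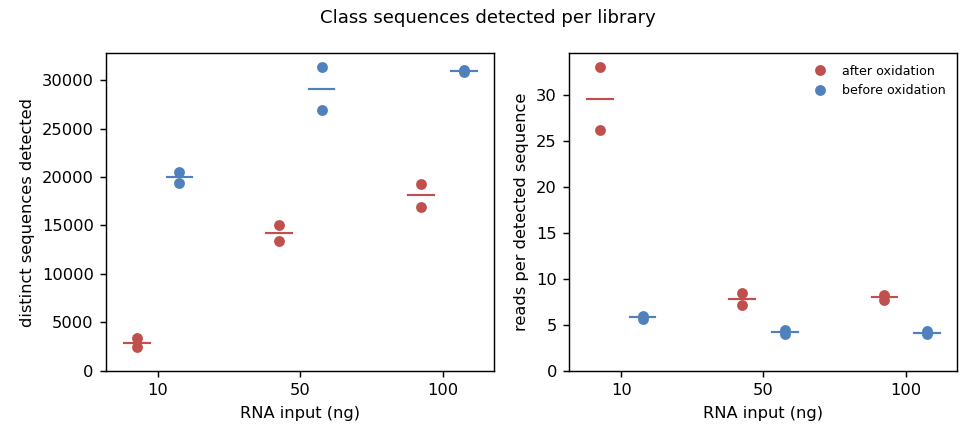
Number of distinct sequences of the class detected (left, y axis) and reads of the class per detected sequence (right, y axis) against RNA input in ng, with a point per library and a line at the mean of 2 libraries, after oxidation left of before oxidation. The libraries of 10 ng after oxidation stand apart, with 2411 and 3378 sequences and 33.1 and 26.2 reads for each.

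Within the class, sequences that begin with C held more of the reads after oxidation. Those held 33.7% and 30.4% of class RPM (10 ng), 25.1% and 27.7% (50 ng) and 24.4% and 24.7% (100 ng) after oxidation. Before oxidation they held 23.4% and 23.1% (10 ng), 22.5% and 22.2% (50 ng) and 21.7% and 21.4% (100 ng). The groups did not overlap, at 27.7% ± 3.74 after and 22.4% ± 0.748 before (SD, n = 6 each, exact permutation p = 0.00926, adjusted over the 3 first bases 0.0139). Sequences beginning with A held 45.5% ± 3.07 after and 49.1% ± 2.36 before (same p values), with overlapping groups that were apart within every input. Sequences beginning with G held 26.9% ± 1.15 after and 28.5% ± 1.63 before (exact permutation p = 0.120, adjusted 0.120). The change of G was -4.86 points at 10 ng and -0.0563 points at 100 ng.

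The first bases also moved with the input, in both states of oxidation. Exact permutation of the input labels within each state gave p = 0.00444 for A, C and G alike. After oxidation A held 42.3% (10 ng), 45.5% (50 ng) and 48.6% (100 ng), and before oxidation 46.3%, 49.5% and 51.5% at the same inputs (means of 2 libraries). G did not move alike in the 2 states, with 25.6%, 28.1% and 26.8% after and 30.5%, 28.1% and 26.9% before. The actcga family begins with A and is part of the A share. It held 6.66% (10 ng) and 14.0% (100 ng) of class RPM after oxidation, and 7.12% and 15.6% before it. Its part in the change of A with input was not tested.

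**Figure D3:**
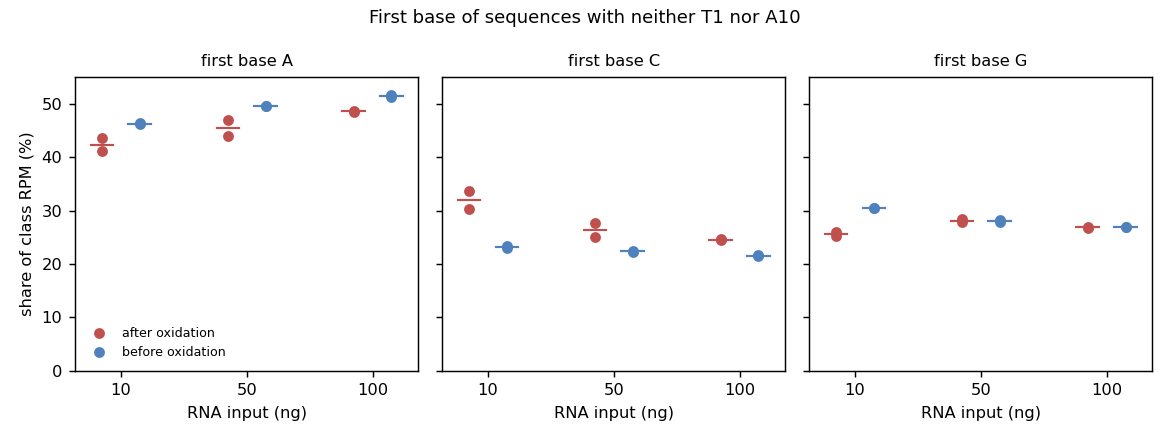
Share of the RPM of the class (y axis, %) held by sequences that begin with A, C or G, against RNA input in ng, with a point per library and a line at the mean of 2 libraries, after oxidation left of before oxidation. C stands higher after oxidation than before it at each input, by 8.83 points at 10 ng, 4.02 at 50 ng and 2.96 at 100 ng.

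By first base and length, 12 of 21 cells changed at an adjusted p below 0.05 in the exact permutation test. C sequences of every length from 27 to 32 nt held more of the class RPM after oxidation, as did A sequences of 28 nt. A sequences of 29 to 32 nt and G sequences of 28 nt held less. Not all of these calls held when 1 library was left out. That of C at 28 nt did not pass without either library of 10 ng before oxidation (adjusted exact permutation p = 0.240 and 0.255). That of A at 28 nt did not pass without any 1 of the 10 and 50 ng libraries before oxidation or replicate 1 of 50 ng after it (adjusted exact permutation p of 0.0530 to 0.0972). The largest gain was that of C at 30 nt, with 5.84% ± 0.920 after and 4.79% ± 0.266 before, and the largest loss that of A at 29 nt, with 9.00% ± 0.824 after and 11.3% ± 0.373 before (SD, n = 6 each, adjusted exact permutation p = 0.0177 for both). Without the actcga family the change was -0.16 points for A at 28 nt, -0.32 points for A at 30 nt against -1.28 with it, and -0.10 points for A at 31 nt against -1.34 with it, and none of the 3 passed (adjusted exact permutation p = 0.170, 0.0833 and 0.944). Over all first bases, sequences of 26 nt held 11.9% ± 0.962 after and 11.1% ± 0.342 before (SD, n = 6 each, adjusted exact permutation p = 0.0432). Those of 29 nt held 19.1% ± 0.467 after and 20.5% ± 0.588 before, and those of 31 nt held 14.8% ± 1.24 after and 15.8% ± 0.510 before (adjusted exact permutation p = 0.0324 for both).

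The base at position 10, free to be C, G or T, moved towards T. Sequences with T10 held 48.0% ± 1.14 of the class RPM after oxidation and 43.1% ± 3.51 before it. Those with G10 held 29.2% ± 0.758 after and 32.4% ± 1.60 before, and those with C10 held 22.8% ± 0.623 after and 24.5% ± 1.93 before (SD, n = 6 each). Each gave an exact permutation p of 0.00926, and 0.0108 when adjusted over the bases tested at position 10 and at the 3' end. At the 3' end, sequences ending in C held 37.0% ± 1.85 after and 33.8% ± 0.455 before, without overlap (p = 0.00926 in the exact permutation test). Those ending in T held 35.1% ± 1.74 after and 36.7% ± 1.62 before, and turned to 0.44 points higher after oxidation when the actcga family was left out. The share of T10 after oxidation was 48.7% at 10 ng and 48.6% at 100 ng, and before it 39.0% at 10 ng and 46.9% at 100 ng (means of 2 libraries). The actcga family has T10 and is part of this share.

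Part of the class lay 1 base away from a T1 sequence. In 32031 sequences (234 of at least 5 RPM) the class member began 1 base downstream of one, so that a T followed by its first 20 bases starts a T1 sequence of the table. In 15288 (97 of at least 5 RPM) it began 1 base upstream, its bases 2 to 21 starting a T1 sequence. In 172 sequences, none of at least 5 RPM, it differed from a T1 sequence at base 1 only, over the first 21 bases. The other 75456 (455 of at least 5 RPM) had none of these neighbours.

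Sequences that begin 1 base upstream of a T1 sequence held more of the class RPM after oxidation. They held 17.1% and 18.6% of class RPM (10 ng), 12.2% and 13.8% (50 ng) and 11.7% and 11.4% (100 ng) after oxidation. Before oxidation they held 10.3% and 10.1% (10 ng), 9.89% and 9.83% (50 ng) and 9.84% and 9.84% (100 ng). The groups did not overlap, at 14.1% ± 3.03 after and 9.96% ± 0.195 before. Downstream neighbours held 24.8% ± 1.72 after and 23.7% ± 1.23 before. Sequences that differ from a T1 sequence at base 1 held 0.0428% ± 0.0148 after and 0.102% ± 0.0219 before, without overlap. Those with no such neighbour held 61.1% ± 4.60 after and 66.2% ± 1.39 before (SD, n = 6 each). All 4 gave p = 0.00926 in the exact permutation test, also after adjustment, but that of the downstream neighbours was 0.0556 without replicate 2 of 50 ng before oxidation. The T1 family next to it was the more abundant of the pair for 25 of the 97 upstream and 101 of the 234 downstream neighbours of at least 5 RPM.

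Of the 786 sequences, 100 (12.7%) matched an annotated transcript without mismatch, 90 of them on its own strand, against 2599 of 19297 T1 sequences (13.5%). Genes of long non-coding RNA, the usual source of adult testis piRNAs, or of unclassified RNA held 72 of the matches. Protein-coding genes held 16 and pseudogenes or others 2. Another 10 were antisense to a transcript only. The long non-coding or unclassified matches held 7.07% ± 1.52 of the RPM of the 786 after and 5.12% ± 0.444 before oxidation (SD, n = 6 each, exact permutation p = 0.00926, adjusted 0.0116). The antisense ones held 0.555% ± 0.162 after and 0.812% ± 0.0993 before (same p values). The 786 were taken by their mean over both states, so members high in a single state are among them and these shares are a description. In Gm14244, atccat-30 alone averaged 133 RPM after and 11.8 RPM before. The weight of single sequences in these shares was not tested.

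Precursor genes differed in how their members fared. The 14 members in 1700001L05Rik (chromosome 15, 83353847 to 83367282, minus strand) summed to 291 ± 103 RPM after and 168 ± 22.1 RPM before oxidation, with 217 RPM as the lowest after and 188 RPM as the highest before. The 8 in Gm14244 (chromosome 2, 127691899 to 127700488, plus strand) summed to 317 ± 41.8 RPM after and 135 ± 15.4 RPM before. Its lowest sum after oxidation was 250 RPM and its highest before it 156 RPM. The 4 in Gm49794 (chromosome 17, 27354111 to 27367492, plus strand) summed to 54.1 ± 18.9 RPM after and 17.9 ± 3.22 RPM before, with 31.0 RPM as the lowest after and 22.5 RPM as the highest before. In these 3 genes the sums did not overlap. Members were taken by their mean over both states, so those high in a single state count in all gene sums given here. The sums are therefore a description. The 6 in 4933440M02Rik (chromosome 7, 125284025 to 125349788, minus strand) gave 121 ± 93.1 RPM after and 41.9 ± 6.54 RPM before. Lower after oxidation was the sum of the 4 in Gm5878 (chromosome 6, 85111416 to 85126125, minus strand), at 53.2 ± 35.6 RPM after and 102 ± 28 RPM before, but its groups overlapped, with 90.6 RPM as the highest after and 83.8 RPM as the lowest before. The 11 in Gm21269 (chromosome 7, 73816546 to 73838898, plus strand) gave 142 ± 37.4 RPM after and 146 ± 9.59 RPM before (SD, n = 6 each, sums not tested).

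Single sequences were tested on log2(RPM + 1) with limma over all 22726 sequences of the table at or above 5 RPM, which understates the change of low ones. Averaged over inputs, 119 of the 786 were higher and 222 lower after oxidation at a Benjamini-Hochberg adjusted p below 0.05. Of all sequences tested, 44% were called, 21.2% higher and 22.8% lower, and of the 786 it was 43.4%, so the number called was close to the background. The median log2 change was -0.42 over the 786 and -0.14 over all tested. Without the 10 ng libraries the balance turned, with 153 higher and 76 lower, where the background was 24.6% higher and 13.1% lower. Of the 222 lower sequences 60 were lower without 10 ng too and 8 were higher, and of the 119 higher ones 85 were higher.

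The falls were concentrated in the libraries of 10 ng after oxidation, in which 250 of the 786 (31.8%) had no read in either library. That share was 19.5% among all sequences tested and 18.2% among T1 sequences of 26 to 32 nt. After oxidation it was 6 of the 786 at 50 ng and 2 at 100 ng, and at 10 ng before oxidation it was 3. Of the 222 lower sequences, 166 had no read in both libraries of 10 ng after oxidation. The part of this loss of sequences in the falls was not tested.

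Tested at each input, limma called 118 higher (background 21.4%) and 326 lower (background 31.5%) at 10 ng, with 52.9% of all sequences called. With 50 ng it called 38 higher (5.77%) and 20 lower (3.44%), with 9.21% of all called. With 100 ng it called 11 higher (1.91%) and 12 lower (2.16%), with 4.07% of all called. The 326 that were lower at 10 ng had a median log2 change of -3.27 there, -0.29 at 50 ng and 0.12 at 100 ng. The effect of oxidation differed between inputs in limma's moderated F test for 235 of the 786 (background 23.1%), of which 31 (background 5.03%) had a higher and 204 (background 18.1%) a lower log2 change at 10 than at 100 ng. After oxidation alone, 66 were higher (background 12.5%) and 320 lower (background 28.8%) at 10 than at 100 ng, with 41.4% of all called. Before oxidation 7 were higher (background 1.06%) and 6 lower (background 0.744%), with 1.8% of all called.

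**Figure D4:**
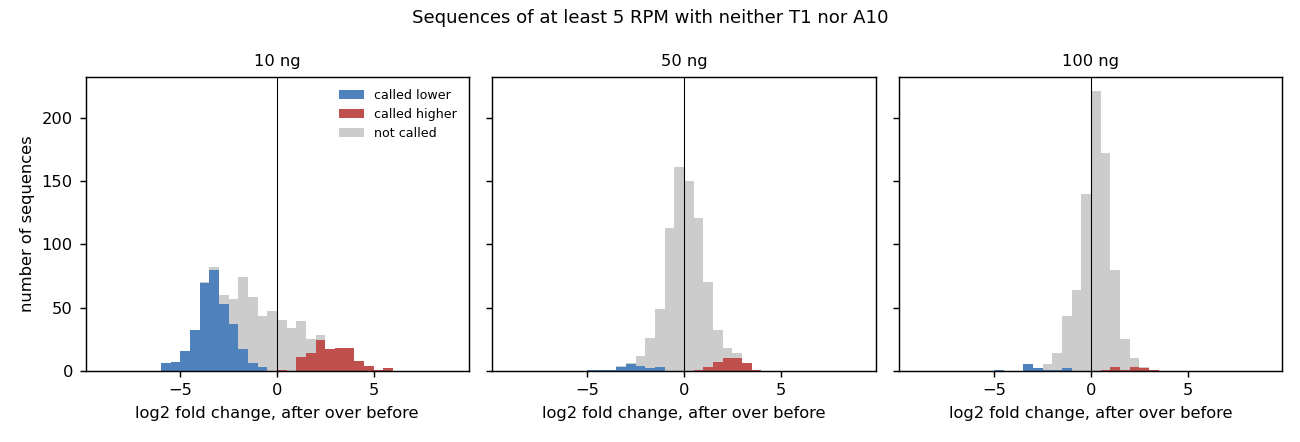
Number of sequences (y axis) by log2 fold change after over before oxidation (x axis) for the 786 members of at least 5 RPM, at 10, 50 and 100 ng, with those called by limma in colour. At 10 ng 326 are called lower and 118 higher, and at 100 ng 12 and 11.

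Of the 786, 93 (11.8%) had groups of 6 libraries that did not overlap, where 16.1% of all sequences tested did not. Among those called it was 92 of 341 (27.0%), and 36.3% of all sequences called. Of the 119 higher sequences 60 had a mean under 5 RPM before oxidation, and of the 222 lower ones 78 had a mean under 5 RPM after it. These reached the limit through the state in which they were high, so the counts are a description. The background for the counts that follow is 21.2% higher and 22.8% lower among all sequences tested. By first base, 42 of 218 C sequences (19.3%) were higher and 44 (20.2%) lower, which is close to it. Of 289 A sequences 41 (14.2%) were higher and 95 (32.9%) lower, and of 279 G sequences 36 (12.9%) were higher and 83 (29.7%) lower. By neighbour, 28 of 97 upstream neighbours (28.9%) were higher and 15 (15.5%) lower. Of 234 downstream neighbours 47 (20.1%) were higher and 64 (27.4%) lower, and of the 455 without a neighbour 44 (9.67%) were higher and 143 (31.4%) lower. T at base 2, which the choice of the class did not use, was found in 46 of the 119 higher and 31 of the 222 lower sequences, and in 172 of all 786. The upstream neighbours all have it by definition.

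The actcga family was the most abundant of the class, with 6.36% to 14.2% of class RPM after and 7.09% to 15.9% before oxidation, and it had all 7 lengths from 26 to 32 nt. Its shorter members held more of its reads after oxidation. The 28-nt member actcga-28 had 965 and 954 RPM (10 ng), 1922 and 1346 RPM (50 ng) and 2456 and 2545 RPM (100 ng) after oxidation. Before oxidation it had 633 and 736 RPM (10 ng), 1265 and 1216 RPM (50 ng) and 1691 and 1852 RPM (100 ng). It was higher after oxidation within every input, with a log2 change of 0.45 ± 0.09 (SE, limma adjusted p = 0.00267).

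The 31-nt member actcga-31 went the other way. It had 404 and 468 RPM (10 ng), 517 and 311 RPM (50 ng) and 642 and 594 RPM (100 ng) after oxidation. The values before oxidation were 704 and 665 RPM (10 ng), 1079 and 1113 RPM (50 ng) and 1301 and 1253 RPM (100 ng). The groups did not overlap, and the log2 change was -1.05 ± 0.12 (SE, limma adjusted p = 0.000155).

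Between these lengths, actcga-30 had 853 ± 417 RPM after and 1274 ± 452 RPM before (log2 change -0.66, limma adjusted p = 0.0035). The 29-nt member was level, at 818 ± 210 RPM after and 827 ± 193 RPM before (SD, n = 6 each). actcga-26 had 510 ± 267 RPM after and 371 ± 137 RPM before, with a log2 change of 0.34 (limma adjusted p = 0.0271). The 32-nt member averaged 30.7 RPM after and 55.7 RPM before (log2 change -1.07, limma adjusted p = 0.0211). The 27-nt member averaged 9.88 RPM after and 18.3 RPM before and did not pass (limma adjusted p = 0.155). Leaving out single libraries ended the call of actcga-26 in 6 of 12 fits (limma adjusted p of 0.0612 to 0.0774) and that of the 32-nt member in 5 (limma adjusted p of 0.0501 to 0.0627). Under edgeR with TMM, DESeq2 and scaling to the methylated spike-ins, the changes of actcga-26 and actcga-28 had the other sign, while those of the members of 30 to 32 nt had the same sign.

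The share of the shorter members does not depend on such scaling. Members of 26 to 28 nt made up 42.6% and 43.2% of the family (10 ng), 49.5% and 54.0% (50 ng) and 52.2% and 53.7% (100 ng) after oxidation. Before it they made up 28.2% and 32.5% (10 ng), 33.7% and 32.9% (50 ng) and 35.1% and 36.4% (100 ng). All libraries after oxidation were above all before it, at 49.2% ± 5.13 after and 33.1% ± 2.80 before (SD, n = 6 each, exact permutation p = 0.00926, adjusted 0.0185 over the family and the mean of families that follows). The same share was taken in each of the 49 families of the class with lengths on both sides, from sequences of at least 5 RPM. Its unweighted mean over families was 36.5% ± 2.42 after and 36.3% ± 2.31 before (exact permutation p = 0.676). Each family counts alike in that mean, so it is not a share of their pooled reads. The family was singled out after its abundance had been seen. All 7 members share their 5' end and differ in where the sequence stops.

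**Figure D5:**
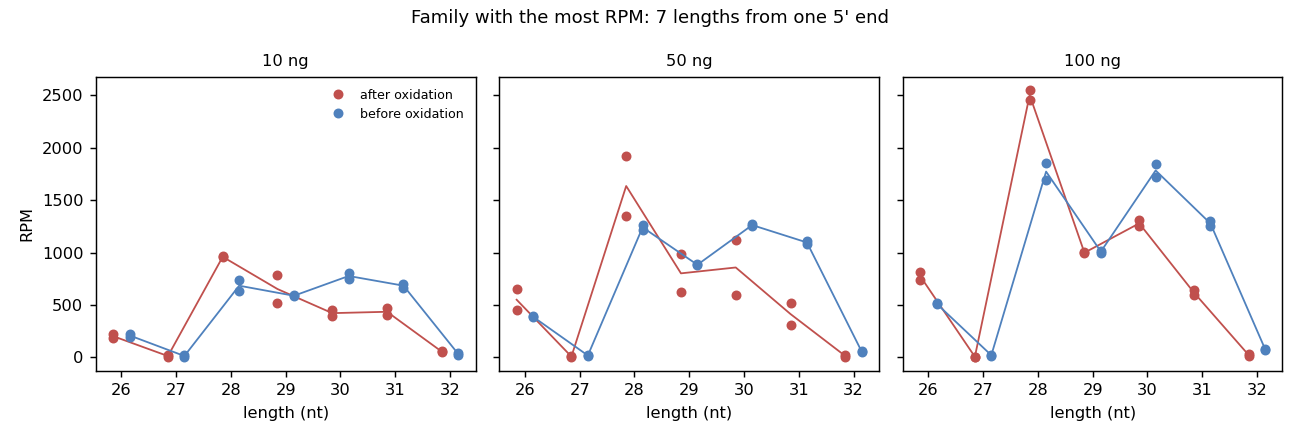
RPM (y axis) of the 7 sequences of the actcga family by length in nt (x axis) at 10, 50 and 100 ng, with a point per library and lines through the means of 2 libraries, after oxidation drawn left of before oxidation. At 100 ng the 28-nt sequence has 2456 and 2545 RPM after and 1691 and 1852 RPM before, and the 31-nt sequence 642 and 594 RPM after and 1301 and 1253 RPM before.

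The gatatt family had 7 members of at least 5 RPM, the same number as the actcga family, and all 7 were higher after oxidation. They are forms of a single 5' family and do not count as 7 separate cases. The 32-nt member that goes on with a averaged 33.4 RPM after and 4.78 RPM before. That member reached the 5 RPM limit through the libraries after oxidation. gatatt-30c had 181 and 200 RPM (10 ng), 145 and 181 RPM (50 ng) and 98.9 and 104 RPM (100 ng) after oxidation. In the libraries before oxidation it had 32.5 and 35.9 RPM (10 ng), 48.5 and 40.0 RPM (50 ng) and 55.3 and 49.4 RPM (100 ng). The groups did not overlap (log2 change 1.75 ± 0.13 SE, limma adjusted p = 1.8e-05).

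Along the same branch gatatt-32c averaged 62.4 ± 25.8 RPM after and 11.2 ± 3.93 RPM before. On the other branch gatatt-30a averaged 92.2 ± 27.0 RPM after and 21.9 ± 7.20 RPM before, and gatatt-31a 68.3 ± 31.0 RPM after and 7.06 ± 2.71 RPM before (SD, n = 6 each). The shared shorter form gatatt-29 averaged 54.1 ± 34.6 RPM after and 6.17 ± 3.41 RPM before. The log2 change of the 7 members was 1.02 to 3.06 on this scale. It was smaller at 100 ng than at 10 ng in all 7, and this dependence on input passed limma's moderated F test for gatatt-29, with 4.66 at 10 ng and 1.52 at 100 ng (adjusted p = 0.0301), and for gatatt-30c, with 2.44 at 10 ng and 0.94 at 100 ng (adjusted p = 0.0196). The family lies 1 base downstream of a T1 family of 7.43 RPM after and 2.28 RPM before oxidation. Reads of gatatt-29 fit both branches and cannot be given to either. Scaled to the methylated spike-ins, 4 of the 7 had a log2 change below 0.

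The pair ctgaac-31 and ctgaac-32 was also higher, by unequal amounts. ctgaac-32 had 298 and 313 RPM (10 ng), 278 and 291 RPM (50 ng) and 274 and 254 RPM (100 ng) after oxidation. Before oxidation it had 90.7 and 89.7 RPM (10 ng), 116 and 111 RPM (50 ng) and 91.7 and 102 RPM (100 ng). These values were close to constant over inputs within each state (log2 change 1.502 ± 0.09 SE, limma adjusted p = 8.2e-06). ctgaac-31, which lacks the last t, averaged 48.9 ± 23.0 RPM after and 4.30 ± 2.64 RPM before (SD, n = 6 each, log2 change 3.25), and it reached the 5 RPM limit through the libraries after oxidation.

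The largest fall was that of cacagg-32. It had 0 and 0 RPM (10 ng), 3.14 and 0 RPM (50 ng) and 0.299 and 0.947 RPM (100 ng) after oxidation. The values before oxidation were 28.9 and 24 RPM (10 ng), 32.6 and 33.8 RPM (50 ng) and 37.1 and 46.6 RPM (100 ng). It was thus near or at 0 after oxidation at every input (log2 change -4.53 ± 0.37 SE), and it reached the 5 RPM limit through the libraries before oxidation. A 31-nt sequence starting gtctac averaged 4.65 ± 4.79 RPM after and 54.9 ± 6.42 RPM before (SD, n = 6 each, log2 change -3.93). This sequence also reached the 5 RPM limit through the libraries before oxidation.

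In 4933440M02Rik, caggca-29 had 0 and 0 RPM (10 ng), 7.33 and 0 RPM (50 ng) and 3.88 and 2.53 RPM (100 ng) after oxidation. In the libraries before oxidation it had 33.2 and 42.5 RPM (10 ng), 14.3 and 14.6 RPM (50 ng) and 7.42 and 10.1 RPM (100 ng). Its log2 change was -5.27 at 10 ng and -1.22 at 100 ng. It too reached the limit through the libraries before oxidation. Of the 6 members in the same gene, 4 were called higher after oxidation, where the background was 21.2%. The 6 were taken by their mean over both states, so this count is a description.

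The largest rise was that of ctcttt-30. It had 240 and 303 RPM (10 ng), 52.3 and 108 RPM (50 ng) and 37.3 and 37.6 RPM (100 ng) after oxidation. Before oxidation it had 2.86 and 4.72 RPM (10 ng), 8.14 and 5.38 RPM (50 ng) and 7.76 and 6.40 RPM (100 ng). The groups did not overlap, and the rise was past the threshold at each input (log2 change 3.81 ± 0.24 SE averaged over inputs, limma adjusted p = 1e-05).

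In Gm14244, atccat-30 had 192 and 334 RPM (10 ng), 71.2 and 151 RPM (50 ng) and 21.2 and 31.6 RPM (100 ng) after oxidation. The values before oxidation were 27.5 and 21.8 RPM (10 ng), 8.53 and 9.56 RPM (50 ng) and 1.69 and 1.52 RPM (100 ng). It was higher after oxidation at each input by about the same log2 amount, 3.32 at 10 ng, 3.38 at 50 ng and 3.37 at 100 ng. It was also higher at 10 than at 100 ng in both states, by a log2 amount of 3.24 after and 3.29 before oxidation (limma adjusted p = 0.00045 and 0.0116). The difference before oxidation did not pass without any 1 of the 4 libraries of 10 and 100 ng before oxidation (limma adjusted p of 0.0975 to 0.135). It averaged 133 RPM after and 11.8 RPM before, a large part of the difference between the sums of Gm14244. The pair of ctgaac sequences, ctcttt-30 and atccat-30 all begin 1 base upstream of a T1 family, which was itself low, at 13.4 RPM after and 3.07 RPM before for ctgaac, 6.87 and 1.86 RPM for ctcttt-30 and 0.742 and 0.174 RPM for atccat-30.

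A 30-nt sequence starting gcttta averaged 22.0 ± 19.8 RPM after and 0.565 ± 0.538 RPM before, with at most 1.19 RPM in a library before oxidation (SD, n = 6 each, log2 change 3.48). It reached the 5 RPM limit only through the libraries after oxidation.

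Before oxidation, 10 and 100 ng separated few members, with 1.65% of the 786 called and 1.8% of all sequences tested. After oxidation 49.1% of the 786 were called, and 41.4% of all. In 1700001L05Rik, actagt-31 had no read in both libraries of 10 ng after oxidation, 12.2 and 16.5 RPM at 50 ng and 12 and 11.7 RPM at 100 ng. In the libraries before oxidation it had 2.86 and 2.54 RPM (10 ng), 11.2 and 10.8 RPM (50 ng) and 15.5 and 11.6 RPM (100 ng). It was lower at 10 than at 100 ng in both states, with a log2 difference of -1.96 before oxidation (limma adjusted p = 0.0495). This call did not hold in 8 of the 12 fits that each left out 1 library, those without any 1 of the libraries before oxidation or of 100 ng after it (limma adjusted p of 0.0835 to 0.362). A 30-nt sequence starting cagaaa was high in 1 condition, with 29.6 and 39.9 RPM at 10 ng before oxidation and 0 to 3.49 RPM in the other 10 libraries. It reached the 5 RPM limit through that condition alone.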

How the data were processed

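Per the submitters' processing notes reads were aligned with Bowtie to mm10, with hg38 also named. The versions are not given in the sources used here, nor is what the RPM values were divided by. The authors deposited the piRNA and miRNA tables in RPM and the spike-in table as read counts. Whole reads were recovered from the size of the smallest step between values. In each library 100% of piRNA values were whole within 0.01 of a read. No per-sample column was left unused.

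Class members were taken by length and bases from all rows, and sums over them use no filter. For shares and sums the labels after and before were permuted exactly within each input, 2-sided (216 labellings). Single sequences with a mean of at least 5 RPM over 12 libraries were fitted with limma-trend on log2(RPM + 1) as 6 group means with a shared spread (limma 3.58.1, R 4.3.3), with Benjamini-Hochberg adjustment over 22726 sequences. Sequences were matched without mismatch to GENCODE M21 transcripts (GRCm38), and no genome was searched. Positions come from that annotation. Of the 786 sequences 5 matched a transcript on chromosome 18 and are not shown.

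Named sequences were the 3 highest before oxidation for each first base, the 6 largest falls and 6 largest rises among those called with a mean of at least 10 RPM, the 2 with the smallest interaction p, the 2 largest rises and falls called between 10 and 100 ng before oxidation, the rows next to the 5 RPM limit, and all lengths of the family with the most RPM and of the family with the most members. Of the largest rises 1 is not reported here. The class, the lists and the rules were chosen with earlier results of these data known. The exact permutation of the oxidation labels was tried on simulated data. So were the limma and edgeR (without TMM) tests of oxidation averaged over inputs. The other tests were not.

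Alternatives were other length windows, pseudocounts of 0.1 and 10, no filter or 50 RPM, neighbour matches over 18 or 24 bases, median centring, scaling to methylated spike-ins, edgeR (4.0.16) with TMM and DESeq2 (1.42.0) on the recovered reads, a replicate block, and each library left out. Leaving out the largest family or the 10 ng libraries and edgeR without TMM were added after seeing the data. Same-numbered libraries did not deviate together (correlations of -0.05 to 0.01 over 15 pairs of groups), so the numbers do not pair them.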

Additional observations from a re-analysis of the deposited data

Results flagged for a closer look

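For 13 named sequences the effect of oxidation differed between inputs in limma's moderated F test (Benjamini-Hochberg adjusted p below 0.05). The values that follow are the log2 change after oxidation at 10 ng minus that at 100 ng.

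Lower at 10 ng by the widest margin was the 30-nt sequence starting cagaaa, at -6.11, but it reached the 5 RPM limit only through the libraries of 10 ng before oxidation, so this value is a description. The 29-nt sequence starting gaacca stood at -5.79 (adjusted p = 0.00049) and had no read in both libraries of 10 ng after oxidation, but 30.7 to 48.5 RPM in the other 4 after it and 19.8 to 33.2 RPM before it. The 27-nt sequence starting aagtga stood at -5.65 (adjusted p = 0.0005) and the 29-nt sequence starting acgatt at -5.37 (adjusted p = 0.00148). Both also had no read at 10 ng after oxidation. The 30-nt sequence starting caaata stood at -3.13, actagt-31 at -1.72 and the 29-nt sequence starting gtcttc at -1.18.

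Higher at 10 ng were ctcttt-30 at 3.59 (adjusted p = 0.00656), gatatt-29 at 3.14, the 30-nt sequence starting gcttta at 2.75, the 32-nt member of the actcga family at 2.63, the 30-nt sequence starting gctcaa at 2.19 and gatatt-30c at 1.498. The 32-nt actcga member had a log2 change of 0.74 at 10 ng and -1.89 at 100 ng.

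In 5 summed values both libraries after oxidation lay on one side of both libraries before it at one input and on the other side at another, and the difference was not tested. The log2 change of the class total RPM was -0.0294 at 10 ng and 0.105 at 100 ng. The share of class sequences ending in G changed by -0.85 points at 10 ng and 0.61 points at 100 ng. That of G sequences of 30 nt changed by -0.80 points at 10 ng and 0.25 points at 100 ng, and that of G sequences of 31 nt by -1.40 points at 10 ng and 0.0916 points at 100 ng. The share of all class sequences of 30 nt changed by -0.37 points at 10 ng, where the libraries overlapped, 0.36 points at 50 ng and -0.57 points at 100 ng.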

How the results depend on the processing

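The class share was lower after oxidation under every alternative run. Without the 10 ng libraries the exact permutation test cannot go below 0.0556, so no result of it can pass. The differences were then -0.49 points for the class share, -3.46 and 3.49 points for first bases A and C, and log2 0.058, -0.12 and -0.16 for the ratios to A10 without T1, T1 with A10 and T1 without A10. The counts of cells of first base by length, of bases at position 10 and the 3' end, and of neighbour classes that passed were 0 each. As a share of distinct sequences detected, T1 with A10 was 0.88 points higher after oxidation. The ratio to A10 without T1 was 0.0437 over 29 to 32 nt, where it did not pass, and -0.0381 over sequences of at least 5 RPM.

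The log2 change of the class total was -0.00269 over 29 to 32 nt, 0.0534 over 24 to 33 nt and 0.0745 without the actcga family (the last pair past 0.05), -2.94 per methylated spike-in read and -0.12 as a share of the piRNA table. Leaving out single libraries it was 0.0436 to 0.0587, and its p passed 0.05 in some of them. First base G changed by 1.06 points over sequences of at least 5 RPM, and by -0.24 as a share of 26 to 32 nt RPM and -2.27 without the actcga family, where it passed. Calls of first base by length that ended were, in points, C at 27 nt over sequences of at least 5 RPM (0.33), and A and C at 28 nt as a share of 26 to 32 nt RPM (0.00724 and 0.0119). Values of the other sign, in points, were as follows. Over sequences of at least 5 RPM, A at 27 nt had -0.063, G at 29 nt 1.03, G at 32 nt 0.33 and last base G 2.45. As a share of 26 to 32 nt RPM, A at 26 nt had -0.00151, A at 27 nt -0.0148 and G at 30 nt -0.0366. Without the actcga family, A at 28 nt had -0.16, G at 30 nt -0.0827 and last base T 0.44. Without the 10 ng libraries, A at 27 nt had -0.0909 and last base G 0.26. Leaving out single libraries, A at 27 nt ranged from -0.0475 to 0.40, G at 29 nt from -0.13 to 0.0793 and G at 30 nt from -0.0326 to 0.0905. The between-input sum of squares of the class share was 0.0281, and 0.29 over sequences of at least 5 RPM.

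Counts of members called after oxidation follow, with those over all sequences tested in brackets. With a filter of 50 RPM, 16 of 44 members were higher (520 of all 1789) and 16 lower (582). With no filter 52 were higher (2118 of all 1018400). Scaled to methylated spike-ins, 3 were higher (175 of all 22726) and 716 lower (19839). With edgeR and TMM 72 were higher (3076). With DESeq2 76 were higher (3261) and 388 lower (8807). Without the 10 ng libraries 76 were lower (2976). The median log2 change of all sequences tested was -0.14, -2.59 with the spike-ins, -0.49 with edgeR and TMM, -0.64 with DESeq2 and -0.34 with median centring. Leaving out single libraries 163 to 354 were lower, the most without replicate 1 of 10 ng after oxidation.

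Between 10 and 100 ng before oxidation, the higher count was 18 with a pseudocount of 10, 4 at 50 RPM, 1 with no filter, 48 with the spike-ins, 25 with DESeq2, 4 with the replicate block and 0 to 51 leaving out libraries. The lower count was 11 at 50 RPM, 3 with no filter, 13 with the spike-ins, 12 with DESeq2, 2 with the replicate block and 0 to 48 leaving out libraries. For the dependence on input, the higher count was 9 at 50 RPM, 7 with no filter, 5 with the spike-ins, 8 with edgeR and TMM and 12 to 85 leaving out libraries. The lower count was 111 with a pseudocount of 10, 13 at 50 RPM, 7 with no filter and 135 to 391 leaving out libraries. DESeq2 was not run for it.

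Same-numbered libraries share only a number. With the replicate block, 0 cells of first base by length passed, where sign flips over 6 pairs cannot go below 0.0312. In that setting 117 members were higher and 210 lower after oxidation, against 4707 and 5021 of all 22726 sequences tested.

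Named sequences of the other log2 sign with the spike-ins were actcga-28 at -2.53, actcga-26 at -2.64, ctgaac-32 at -1.47, the 30-nt sequence starting gctcaa at -1.83, gatatt-30c at -1.20, gatatt-30a at -0.88, the 31-nt gatatt sequence with 1 base less than gatatt-32c at -1.71 and gatatt-32c at -0.49. actcga-28 was at -0.0797 with edgeR and TMM and -0.22 with DESeq2, and actcga-26 at -0.19 and -0.33. Without the 10 ng libraries the sequence starting gaaagt was at 0.42, that starting gaataa at 0.15, gaacca at 0.74, aagtga at 0.16, actagt-31 at 0.0856 and cagaaa at 0.37. Leaving out single libraries, the 29-nt actcga member ranged from -0.13 to 0.0851 and the sequence starting gaaagt from -0.43 to 0.0937. The cause of these changes was not tested. Sequences near 5 RPM rest on few reads, and their calls are the least certain.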
